A study of Arabidopsis thaliana with 128 samples.

Results

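The nuclei described here were sorted as stem cell nuclei from unstressed Arabidopsis seedlings labelled *ddm1* and wild type (wt). In those labelled *ddm1*, the medians of *STM*, *AGO5* and *AGO9* were nearer to wt nuclei outside the gate than to wt stem cell nuclei. Of these genes *AGO9* was still called higher than in the wt nuclei outside the gate. Among 25 tested genes of stem cell and meristem maintenance, 16 were not called between the labels. The members are all mRNA libraries of stem cell nuclei from the 21 °C controls at 7 d in these genotypes, 8 labelled *ddm1* and 8 labelled wt, 16 of the 128 libraries of the series. The study asked how heat and DNA methylation shape transcripts of genes and transposable elements (TEs) in stem cells of the shoot apical meristem, and these libraries give the state of the *ddm1* mutant before any heat. Both genotypes are in the accession Col-0 and carry *pCLV3::H2BmCherry*, a histone fused to a red fluorescent protein under the promoter of *CLV3*, which is active in the stem cells. In *ddm1*, this reporter had been crossed into the insertion allele *ddm1-10*. Seedlings grew in vitro at 21 °C. Nuclei were separated by fluorescence-activated sorting, and each library was made from 100 nuclei. The study names both dissected meristem tissue and above-ground seedlings as their source, so wt nuclei outside the gate may come from beyond the apex. These groups are called *ddm1* CS7 and wt CS7 (C for control, S for stem cell nuclei, 7 for the day). Set beside them were 6 libraries of unstressed wt nuclei that lacked the reporter signal (CN7), 4 libraries per genotype of whole unstressed 7-d seedlings without roots (CT7), and 4 libraries per genotype of stem cell nuclei from unstressed 28-d inflorescences (CS28). To draw up gene lists, 8 libraries of stem cell nuclei and 6 of nonstem nuclei from heat-stressed 7-d wt seedlings were also used. Whether replicates came from separate plants or sorts is not stated, so p-values measure the spread between libraries, part of which may be technical.

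DDM1 is a chromatin remodeler of the SNF2 family that lets DNA methyltransferases reach nucleosomal DNA in heterochromatin. Plants that lack it lose cytosine methylation over TEs and repeats, and many TEs of the regions around the centromeres are then transcribed. Some genes that carry repeats or TE sequence in their promoters are known to be released in the same way.

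The libraries held 3268086 to 4250675 reads in *ddm1* CS7 and 1853992 to 3949729 in wt CS7, and 19845 to 20551 genes in *ddm1* CS7 and 19305 to 20424 in wt CS7 had at least 1 read. The share of reads on organelle-encoded genes was lower in *ddm1* CS7, at a median of 25.6% against 28.3% (adjusted p = 0.00497 over 4 library measures, two-sided exact permutation test), while 18S rRNA (14.1% as the mean of each group, adjusted p = 0.974), the number of detected genes (adjusted p = 0.354) and total reads (adjusted p = 0.0668) did not pass. The marker check was weak in the mutant. The reporter transcript had normalized counts (reads divided by the size factor of the library) of 0, 7.24 and 19.0 (lowest, median, highest) in *ddm1* CS7, 3.26, 25.8 and 86.6 in wt CS7 and 0, 0 and 2.49 in CN7. Its groups overlapped, with the lower median in *ddm1* CS7 (adjusted p = 0.0426 over reporter and *CLV3*, exact permutation test). *CLV3*, which encodes the signalling peptide of the stem cells, had 0, 2.64 and 16.3 in *ddm1* CS7 against 0, 16.2 and 27.4 in wt CS7 and 0, 0 and 1.21 in CN7 (adjusted p = 0.0404). In the fit over all features neither reached the threshold, at an adjusted p of 0.0644 for the reporter and 0.0762 for *CLV3*, and the call depended on single libraries, since the fit gave 0.0357 for *CLV3* without *ddm1* CS7 replicate 5 and 0.0124 without wt CS7 replicate 6, and for the reporter 0.0405, 0.0422, 0.0466 and 0.0291 without *ddm1* replicate 1, *ddm1* replicate 6, wt replicate 5 and wt replicate 6. *WUS*, the gene of the organizing centre below the stem cells, was at 0 in all 8 *ddm1* CS7 libraries and in 5 of 8 of wt CS7. *STM*, *AGO5* and *AGO9*, described further on, were nearer to CN7 than to wt CS7 in the libraries labelled *ddm1*. In sorted bulks of 100 nuclei, a lower share of stem cell nuclei and less RNA per nucleus cannot be told apart.

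**Figure D1:**
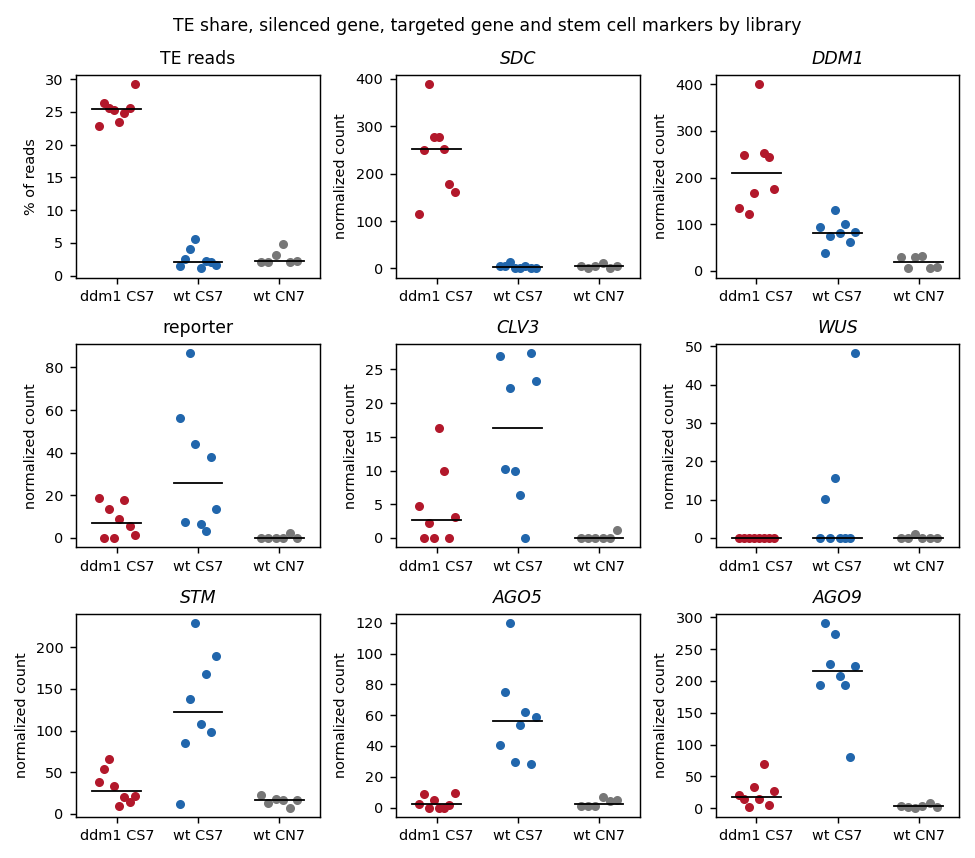
Percent of reads on TEs and normalized counts of *SDC*, *DDM1*, the reporter and 5 stem cell or meristem genes in each library of *ddm1* CS7, wt CS7 and wt CN7 (points are libraries, lines are medians). TE share and *SDC* of the 8 *ddm1* libraries lay above all wt libraries, *DDM1* was at a median of 210.5 in *ddm1* CS7 against 81.7 in wt CS7, and *AGO9* was at a median of 17.9 against 216.

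The targeted gene did not follow its label. *DDM1* (AT5G66750) had 122, 210.5 and 401 normalized counts (lowest, median and highest of 8) in the stem cell nuclei labelled *ddm1* against 38.1, 81.7 and 130.3 in those labelled wt. The groups overlapped only at the lowest *ddm1* libraries, and the gene was higher in the libraries labelled *ddm1* (log2 fold change 1.36, SE 0.24, adjusted p = 5.65e-05). Here and below, log2 fold changes are *ddm1* over wt on the scale of log2(normalized count + 1), adjusted p-values come from limma with Benjamini-Hochberg adjustment over all genes and TEs tested, and calls needed both an adjusted p below 0.05 and a log2 fold change beyond 1 in either direction. In seedlings the same transcript was at 0 to 1.38 in *ddm1* CT7 and at 12.6 to 41.8 in wt CT7 (-3.76, SE 0.54, adjusted p = 0.000303). In inflorescence stem cell nuclei it was at 52.6 to 87.1 in *ddm1* CS28 and at 31.1 to 53.9 in wt CS28 (0.79, SE 0.24). Where reads fall relative to the insertion of the allele was not examined, so the gene-level count may hold transcript outside it. The libraries are therefore named by their labels.

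*SDC* (AT2G17690), an F-box gene that is silenced in wt shoots through methylation of tandem repeats upstream of it, did follow the label. It had 114, 251 and 389 normalized counts in *ddm1* CS7 against 0, 2.78 and 13.3 in wt CS7 and 0, 4.98 and 12.2 in CN7. No *ddm1* library overlapped any wt library (log2 fold change 6.22, SE 0.52, adjusted p = 3.32e-11). It was also called in seedlings (71.7 to 149 in *ddm1* CT7, 0 in all 4 wt CT7 libraries, log2 fold change 6.86) and in inflorescence stem cell nuclei (1133 to 1294 in *ddm1* CS28, 1.97 to 14.8 in wt CS28, 7.16). The bases before its annotated start are printed because they carry the repeat. They lie on the plus strand of chromosome 2 (chr2:7681862-7682161, RefSeq annotation of TAIR10.1). In the best run of the direct repeat, 62 of 64 bases equal those 32 positions further on. Capitals mark 202 bases, covered by all runs of 64 in which 80% or more equal the bases 32 positions on. The edges of the capitals are thus not exact ends of the repeat:
SDC: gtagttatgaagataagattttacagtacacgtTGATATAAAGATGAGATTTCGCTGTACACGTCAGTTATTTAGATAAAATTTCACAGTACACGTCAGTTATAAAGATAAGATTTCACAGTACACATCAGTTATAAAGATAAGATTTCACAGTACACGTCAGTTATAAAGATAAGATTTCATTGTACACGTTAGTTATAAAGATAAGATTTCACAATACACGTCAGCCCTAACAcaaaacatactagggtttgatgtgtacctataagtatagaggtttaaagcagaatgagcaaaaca
Such a direct repeat, with 80% or more equal bases over 64 at a distance of 20 to 60, was found in the 300 bases before the start of 205 of all 37897 genes (0.541%), of 46 of the 18516 tested genes with a window (0.248%), of 3 of the 910 genes with a window that were called higher in *ddm1* CS7 (0.33%) and of 4 of the 939 called lower (0.426%). The repeat was thus not a common feature of genes that rose.

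The other genes known to be silenced by DNA methylation behaved unequally. Of 10 listed genes 4 had enough reads for a test, and 3 of these rose (*SDC* among them). Over all 18590 nuclear genes tested, 4.92% were called higher. A gene could pass the mean of 5 over the 16 libraries through its *ddm1* values, as *SDC* did with a wt CS7 mean of 3.70. The share of 3 among 4 depends on that filter. *QQS* (AT3G30720), a young gene of starch metabolism whose expression varies with the methylation of repeats next to it, had 667, 788 and 905 normalized counts in *ddm1* CS7 and 0, 12.5 and 24.8 in wt CS7 (6.31, SE 0.50, adjusted p = 4.35e-09). *FWA* (AT4G25530), a homeobox gene that is silent in vegetative tissue and delays flowering when it is not, had 20.3, 41.5 and 79.8 in *ddm1* CS7 and 0, 2.72 and 9.01 in wt CS7 (3.78, SE 0.59, adjusted p = 7.7e-06). In both genes the 8 libraries labelled *ddm1* lay above all wt libraries. *FWA* was also called in seedlings, with 28.3 to 64.6 in *ddm1* CT7 and 0 in all wt CT7 libraries, but not in inflorescence stem cell nuclei, where wt itself had 11.3 to 48.8 and *ddm1* CS28 had 23.8 to 66.8 (0.76, adjusted p = 0.273). *BNS*, the fourth gene tested, had 0, 5.91 and 9.11 in *ddm1* CS7 and 3.16, 8.86 and 21.2 in wt CS7 (adjusted p = 0.329). The endosperm genes *PHE1* and *MEA* and the epidermal homeobox gene *HDG3* stayed under a mean of 5 and were not tested.

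TEs took a large share of all reads in the mutant nuclei. Their share was 22.9%, 25.4% and 29.3% (lowest, median, highest) in *ddm1* CS7 and 1.08%, 2.13% and 5.61% in wt CS7, with 2.06% to 4.78% in CN7. The groups did not overlap, the means being 25.4% ± 1.94 in *ddm1* CS7 and 2.58% ± 1.5 in wt CS7 (SD, n = 8 each; p = 0.000155, two-sided exact permutation test, the smallest p that 8 against 8 libraries allow). When 18S rRNA and organelle genes were taken out of the denominator the shares were 41.9% ± 1.43 in *ddm1* CS7 and 4.70% ± 2.80 in wt CS7 (SD, n = 8 each), at the same exact p. Inflorescence stem cell nuclei had 25.7% to 31.5% in *ddm1* CS28 and 1.11% to 3.14% in wt CS28, while whole seedlings had only 2.41% to 3.31% in *ddm1* CT7 and 0.0727% to 0.234% in wt CT7. The mutant nuclei held reads on 4067 to 4555 TEs per library, against 2429 to 3174 in wt CS7.

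These reads were spread over many elements in each *ddm1* library, while wt libraries differed among themselves. In *ddm1* CS7 libraries, 45 to 58 TEs took the first 50% of TE reads, and 10 TEs took 19.9% to 27.9%. In wt CS7, 2 TEs took 34.3% to 82.9% of all TE reads in 6 of 8 libraries, and in each of these 6 they were *AT4TE15950* and *AT1TE48050*. In wt replicates 1 and 5 the first 50% took 82 and 47 TEs, as many as in *ddm1* or more. *AT4TE15950* had 172, 287 and 616 normalized counts in *ddm1* CS7 and 255, 30909.7 and 91287 in wt CS7, with 20971 to 76799 in CN7. It was called lower in *ddm1* (-5.27, SE 1.08, adjusted p = 0.0017) although the ranges overlapped, since the lowest wt library lay within the range of the mutant. In seedlings it ran the other way, with 20.6 to 37.1 in *ddm1* CT7 and 0 in all wt CT7 libraries. *AT1TE48050* varied as much within genotypes as between them, with 771, 32604 and 129709 in *ddm1* CS7 and 177, 15823 and 97580 in wt CS7 (0.66, adjusted p = 0.789). Part of the wt share thus came from elements whose level differed by more than 100-fold between libraries of 1 group.

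Of 2558 TEs with a mean of at least 5 over the 16 libraries, 1844 (72.1%) rose in *ddm1* CS7 and 71 (2.78%) fell. TEs could pass this mean through their *ddm1* values alone, so the shares and medians of tested TEs depend on it. With no minimum mean, 2119 of 11520 TEs rose and 101 fell. In 1454 TEs (56.8%) all *ddm1* values lay above all wt values and in 19 (0.743%) all lay below, and 1453 and 18 of these were among the called ones. The median log2 fold change of all tested TEs was 4.18 and that of the TEs that rose 5.6. In 555 of the latter all 8 wt libraries were at 0, for which a fitted fold change depends on the added 1. Against a floor of 3 reads per wt library, the level in *ddm1* CS7 of these 555 was at least 2.3-fold to 9896-fold higher, with a median of 12.1, and was over 100-fold higher in 86 of them. With such TEs set at this bound the medians were 3.55 over all tested TEs and 5.01 over those that rose. TEs that rose reached high levels, with a mean over 1000 normalized counts in *ddm1* CS7 for 282 of them and over 10000 for 33. Over all TEs, a mean over 1000 was reached by 5 in wt CS7.

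The 10 TEs with the highest means in *ddm1* CS7 were all but silent in wt. *AT1TE44450* had 62203, 79057 and 88349 normalized counts in *ddm1* CS7 and 0, 0 and 2.25 in wt CS7 (15.75, SE 0.22, adjusted p = 1.5e-27). *AT3TE60280* had 46279, 56388 and 69685 in *ddm1* CS7 and 0, 0 and 4.51 in wt CS7. *AT1TE44630* had 35179.9, 43702 and 52263 in *ddm1* CS7 and 0 in every wt CS7 library, which is at least 9896-fold higher. The groups stood far apart in all of these. *AT4TE07420*, with 18978, 23623 and 30513 in *ddm1* CS7, was also at 0 in every wt CS7 library and at least 5392-fold higher. *AT2TE15880* was the exception to silence in wt, with 32905, 71249 and 114689 in *ddm1* CS7 and 0, 32.3 and 714 in wt CS7 (11.64, SE 1.17, adjusted p = 1.15e-06). The other 5 (*AT1TE38940*, *AT4TE15820*, *AT2TE63800*, *AT5TE47200* and *AT1TE46765*) had *ddm1* medians from 19725 to 28463 and wt medians from 0 to 1.48. All 10 were also called higher in seedlings and in inflorescence stem cell nuclei. Reads shared by near-identical copies of an element may have been split or assigned to one of them, so values of single TEs are uncertain in that respect.

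**Figure D2:**
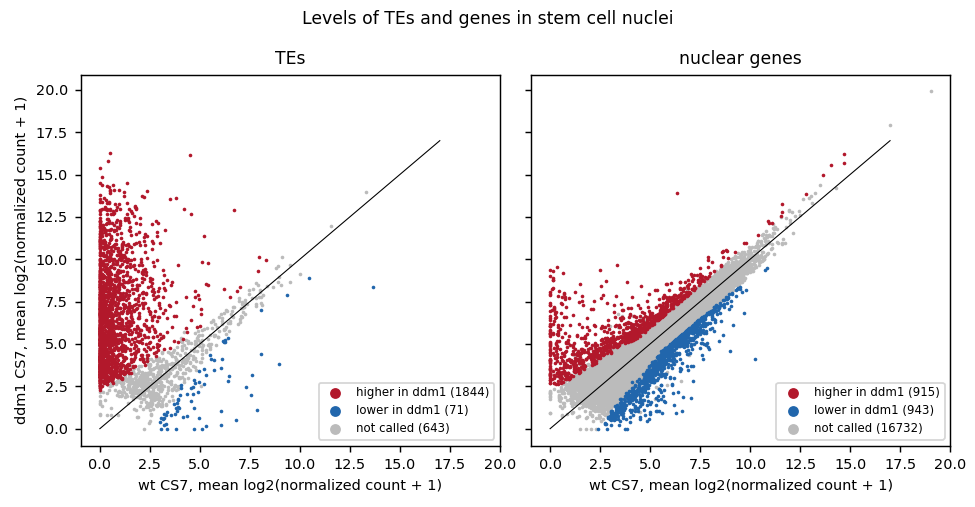
Mean log2(normalized count + 1) of each tested TE (left) and nuclear gene (right) over 8 *ddm1* CS7 libraries (vertical axis) and 8 wt CS7 libraries (horizontal axis), with the line of equal levels. The 1844 TEs that rose form a column at the wt floor, while the 915 genes that rose and the 943 that fell lie on both sides of the line.

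The TEs that fell were few, and most of the 5 with the smallest log2 fold change have neighbouring identifiers. *AT1TE71825* had 0, 1.81 and 4.74 normalized counts in *ddm1* CS7 and 173, 242 and 282 in wt CS7 (-6.75, SE 0.43, adjusted p = 7.11e-14). *AT1TE71830*, *AT1TE71810* and *AT1TE71790*, near it in identifier order, had log2 fold changes of -6.28, -5.83 and -5.61 without overlap of the groups. They were at CN7 medians of 121 to 301 and thus also present in the other wt nuclei. In inflorescence stem cell nuclei the same 4 had log2 fold changes from -5.80 to -4.46. *AT1TE41800*, among the most abundant TEs of wt CS7, had 324, 468 and 609 in *ddm1* CS7 and 1246, 1349 and 1619.8 in wt CS7 (-1.58, SE 0.11, adjusted p = 5.83e-13), and in inflorescence stem cell nuclei it had a log2 fold change of -1.44.

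TEs on a list that the study drew up of heat-induced elements were read here in unstressed nuclei. Of 54 listed TEs 36 were tested, 24 rose in *ddm1* CS7 and 1 fell, a share that lies near the 72.1% of all TEs tested with the same filter. Families differed. All 11 tested *ATGP10* elements, a family of Gypsy retrotransposons, rose, an example being *AT5TE46840* with 355, 471 and 894 normalized counts in *ddm1* CS7 and 0, 0 and 8.15 in wt CS7 (8.04, adjusted p = 4.23e-15). All 3 elements of *ROMANIAT5* rose as well. Of 8 *ATCOPIA78* elements, the heat-responsive Copia family named *ONSEN*, 3 had enough reads, none rose, and *AT5TE15240* fell, with 0, 0 and 19.0 in *ddm1* CS7 and 0, 10.09 and 27.7 in wt CS7 (-2.37, adjusted p = 0.0233). *AT1TE24850* of this family had 11.9, 22.6 and 38.1 in *ddm1* CS7 and 17.2, 23.5 and 38.1 in wt CS7 (-0.13, adjusted p = 0.852). The *ONSEN* copies thus stayed at a low level in unstressed nuclei of either label.

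Coordinates of TEs were not used here, and position was read from identifiers, which number TEs and genes along each chromosome. When the identifiers of each chromosome were cut into 10 equal parts, the share of tested TEs that rose was 42.3% in the first and 24.4% in the last part and reached 89.6% in the fourth and 86.6% in the part after it. Measured over all identifiers, whether or not they had reads, 14.1% rose in the fourth and 13.9% in the next part, against 1.92% in the first and 1.03% in the last. Genes showed this less evenly. On chromosome 2, 52 of 212 tested genes of the second part (24.5%) rose, on chromosome 5 43 of 297 of the fifth part (14.5%), and on chromosome 4 27 of 209 of the second part (12.9%), where 4.92% rose over all genes. Genes silent in wt could enter the tested set through their *ddm1* values alone. Over all gene identifiers of these parts, 11.1%, 6.42% and 6.09% rose, in the same order. The 10 parts over all chromosomes had 2.45% to 4.79% by that measure. The parts were chosen after their values were seen, and they are given as a description.

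**Figure D3:**
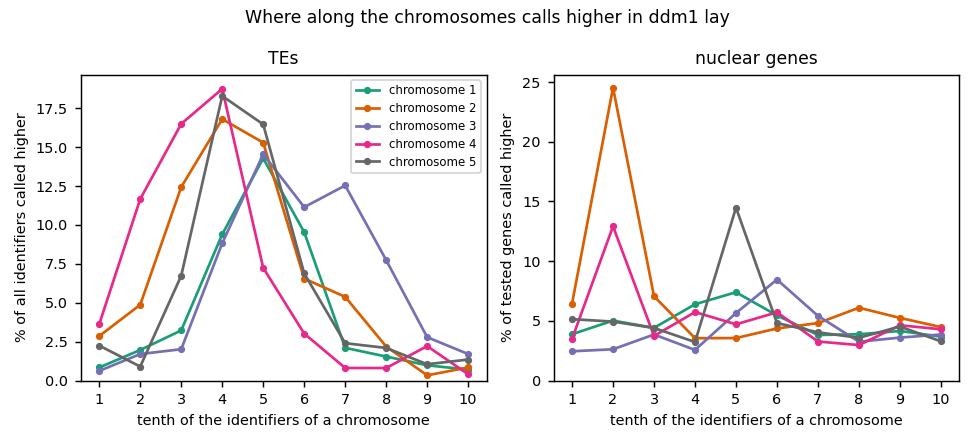
Percent of all TE identifiers (left) and of tested nuclear genes (right) that were called higher in *ddm1* CS7, by part of the identifiers (10 equal parts for each of 5 chromosomes). The TE curves peak in the inner parts, near 14.1% over all chromosomes in the fourth, and the gene curves peak in the second part of chromosome 2 at 24.5% and in the fifth of chromosome 5 at 14.5%.

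Among nuclear genes, changes in both directions were about equally frequent and smaller than those of TEs. Of 18590 genes tested 915 (4.92%) rose and 943 (5.07%) fell in *ddm1* CS7, and all values of 1 group lay above those of the other in 438 genes (2.36%) with *ddm1* higher and 312 (1.68%) with *ddm1* lower. Of the called genes, 308 that rose and 189 that fell were of this kind. Those that rose had a median log2 fold change of 2.02 (1.97 with the 56 genes at 0 in all wt libraries set at their bound), and those that fell of -1.65, with -0.02 for all genes. Scaling moved this balance. When libraries were scaled to the total of their nuclear genes, 736 genes rose and 1384 fell, the median of all genes was -0.17, and 34.7% of gene calls were upward in place of 49.2%. Among gene types, transcribed pseudogenes rose in 37 of 169 (21.9%) and protein-coding genes in 850 of 18009 (4.72%). Genes silent in wt were tested only where their *ddm1* values carried them past the minimum mean, so these shares depend on that filter.

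The 12 nuclear genes with the largest log2 fold change among those without overlap were silent or almost silent in wt nuclei of either kind. *AT5G28810*, annotated as an Ulp1 protease family protein, had 537, 640.1 and 762 normalized counts in *ddm1* CS7 and 0 in all 8 wt CS7 libraries, which is at least 147-fold higher. *AT3G60950*, annotated with a C2 calcium/lipid-binding domain, had 419, 543 and 591 in *ddm1* CS7 and again 0 in wt CS7, at least 117-fold higher. *AT5G29560*, annotated as caleosin-related, had 332, 408 and 682 in *ddm1* CS7 and 0, 0 and 1.46 in wt CS7 (8.61, SE 0.38, adjusted p = 8.86e-18). No library labelled *ddm1* came near the wt range in these genes. The other 9 (*AT3G29639*, *AT1G41890*, *AT5G38190*, *AT2G05642*, *AT3G29080*, *AT2G06562*, *AT5G33251*, *AT4G06748* and *AT2G11778*) had log2 fold changes from 7.92 to 9.20, and they include transcribed pseudogenes and genes annotated as uncharacterized proteins. Of the 12, 10 were tested and called in seedlings too, with log2 fold changes from 3.9 to 10.28, and *AT3G60950* and *AT3G29080* were too low there for a test.

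The 12 genes with the smallest log2 fold change included resistance and defence genes and regulators of the shoot apex. *AT1G58602*, annotated as a disease resistance protein with LRR and NB-ARC domains, had 4.74, 18.5 and 48.6 normalized counts in *ddm1* CS7 against 1037, 1159.8 and 1494 in wt CS7 (-6.13, SE 0.33, adjusted p = 2.35e-13). It was as low in inflorescence stem cell nuclei, with 6.80 to 15.1 in *ddm1* CS28 and 638 to 804 in wt CS28, and it fell in seedlings, with 1.38 to 29.6 in *ddm1* CT7 and 113 to 182 in wt CT7. *RLP19*, a receptor-like protein, had 0, 2.36 and 7.24 in *ddm1* CS7 and 44.4, 142 and 303 in wt CS7 (-5.22, SE 0.48). *CYP71A13*, a cytochrome P450 of camalexin synthesis, had 0, 4.09 and 15.8 in *ddm1* CS7 and 71.4, 94.6 and 143 in wt CS7 (-4.77, SE 0.57). None of these 3 overlapped between the groups. *AT4G10060*, annotated as a beta-glucosidase, had 7.25, 24.5 and 70.4 in *ddm1* CS7 and 453, 499 and 613 in wt CS7 and fell in all 3 sample types, with log2 fold changes of -4.45 in CS7, -3.86 in CT7 and -3.70 in CS28. *ARGAH2*, an arginase, *AT1G13650*, *AT1G23935* and the defensin-like *AT1G13608* had log2 fold changes from -4.41 to -4.27. These 8 genes were at CN7 medians of 26.6 to 1405 and so were present in both kinds of wt nuclei. The other 4 (*DRP4B*, *CUC2*, *AT5G61120* and *AGO5*) were at CN7 medians of 0.428 to 5.04, close to the level in *ddm1* CS7, and with CN7 in place of wt CS7 *DRP4B* was not called (adjusted p = 0.614) and *AT5G61120* had a log2 fold change of 0.78 (adjusted p = 0.614).

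Genes that write and read DNA methylation were mostly lower or not called. In the list of CG and CHG methylation maintenance, which holds *DDM1* itself, 2 of 14 rose and 1 fell, beside 4.92% and 5.07% of all genes, with a median log2 fold change of -0.60. *MET1*, the CG methyltransferase, had 137, 176 and 272 normalized counts in *ddm1* CS7 and 217, 275 and 378 in wt CS7, a difference under the fold threshold (-0.61, SE 0.16, adjusted p = 0.00523). *MET2*, a homolog of *MET1*, was the other gene that rose, with 6.07, 41.5 and 164 in *ddm1* CS7 and 0, 5.81 and 24.5 in wt CS7 (2.70, SE 0.71, adjusted p = 0.0043), while CN7 had 1.98, 34.4 and 155, and against CN7 its call was lost (adjusted p = 0.829). The groups overlapped for both. *SUVH5*, a histone H3K9 methyltransferase, fell, with 6.07, 46.6 and 88.5 in *ddm1* CS7 and 77.6, 103 and 175 in wt CS7 (-1.52, SE 0.39). The chromomethylases *CMT3* and *CMT2* had log2 fold changes of -0.53 and -0.59 at adjusted p of 0.165 and 0.0539.

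In RNA-directed DNA methylation 4 of 20 tested genes fell and none rose, with a median of -0.57, beside 5.07% of all genes that fell. *NRPE1*, the largest subunit of RNA polymerase V, had 50.6, 87.9 and 134 normalized counts in *ddm1* CS7 and 187, 259.8 and 444 in wt CS7 (-1.60, SE 0.21, adjusted p = 5.58e-07), without overlap. *NRPD1*, its counterpart in RNA polymerase IV, had 18.22, 26.8 and 40.5 in *ddm1* CS7 and 35.3, 82.4 and 131 in wt CS7 (-1.5, SE 0.30). *CLSY1*, a remodeler that directs RNA polymerase IV, had 3.61, 20.9 and 45.3 in *ddm1* CS7 and 42.8, 89.0 and 158 in wt CS7 (-2.03, SE 0.41). The last 2 overlapped slightly. *CLSY2* also fell (-3.13, SE 0.65). *DRM2*, the methyltransferase of the pathway, had 11.9, 32.5 and 41.7 in *ddm1* CS7 and 10.3, 42.0 and 79.1 in wt CS7 (-0.28, adjusted p = 0.669). In CN7 the medians of *NRPE1*, *NRPD1*, *CLSY1* and *CLSY2* were 119.9, 30.1, 28.2 and 3.4, and of these *NRPE1*, *NRPD1* and *CLSY1* were tested against CN7 and not called (adjusted p = 0.112, 0.64 and 0.71).

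The DNA demethylase gene *ROS1* fell most clearly among its group. It had 18.1, 35.9 and 58.8 normalized counts in *ddm1* CS7 and 242, 347 and 431 in wt CS7 (-3.24, SE 0.21, adjusted p = 2.09e-13), without overlap, and with 98.1 to 168 it was higher in all 6 CN7 libraries than in any *ddm1* CS7 library. Its transcription is known to follow the methylation of its own promoter. *DME*, *DML2* and *DML3*, the related demethylases, had log2 fold changes of -0.10, -0.70 and -1.0 and were not called, so that 1 of 5 genes on the list fell, beside 5.07% of all genes. In inflorescence stem cell nuclei *ROS1* was at 193 to 293 in *ddm1* CS28 and 548 to 688 in wt CS28 (-1.30, SE 0.13).

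Among Argonautes, which carry small RNAs, 3 of 9 tested genes fell, beside 5.07% of all genes, and none rose, with a median of -0.76. *AGO5* had 0, 2.09 and 9.11 normalized counts in *ddm1* CS7 and 28.4, 56.0 and 119.9 in wt CS7 (-4.20, SE 0.59, adjusted p = 1.14e-06). *AGO9* had 2.25, 17.9 and 69.0 in *ddm1* CS7 and 81.1, 216 and 291 in wt CS7 (-3.55, SE 0.44, adjusted p = 1.88e-07). Both groups stood apart. *AGO7*, the partner of miR390, had 0, 9.02 and 37.9 in *ddm1* CS7 and 24.8, 58.6 and 79.1 in wt CS7 (-2.74, SE 0.55). *AGO5* and *AGO9* are transcribed in stem cells, and their CN7 medians were 2.59 and 2.84. Against CN7 *AGO9* was higher in the libraries labelled *ddm1*, at a log2 fold change of 2.21 (adjusted p = 0.0139). In inflorescence stem cell nuclei they were not called, with log2 fold changes of -0.32 for *AGO5* and -0.49 for *AGO9*. *HEN1*, the small RNA methyltransferase, and *MORC2*, an ATPase of heterochromatin, were the single genes that fell among 8 genes of post-transcriptional silencing (-1.36, SE 0.34) and 14 heterochromatin factors (-1.49, SE 0.35).

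Some genes of the meristem and most tested genes of organ boundaries fell in the nuclei labelled *ddm1*, where the reporter also had a lower median. Of 25 tested genes of stem cell and meristem maintenance 8 fell and 1 rose, with a median of -0.44, and of 10 organ boundary genes 6 fell and none rose, with a median of -2.57, beside 5.07% of all genes that fell and 4.92% that rose. *STM*, the homeobox gene that keeps meristem cells undifferentiated, had 9.03, 27.1 and 65.3 normalized counts in *ddm1* CS7 and 11.3, 123 and 229 in wt CS7 (-1.88, SE 0.48, adjusted p = 0.00356), and 1 wt library was as low as the mutant. *ATH1*, a homeobox gene of the shoot apex, had 31.5, 61.9 and 115 in *ddm1* CS7 and 195, 284 and 419.7 in wt CS7 (-2.16, SE 0.23). *ANT*, an AP2-type growth regulator of primordia, had 32.9, 46.3 and 58.0 in *ddm1* CS7 and 126, 169 and 213 in wt CS7 (-1.81, SE 0.20). *STM* overlapped between the groups and the others did not. *KNAT2* and *PLT3* fell as well (-1.67 and -2.48), while the related *KNAT6* and *BP* did not pass (-0.41, adjusted p = 0.219, and -0.37, adjusted p = 0.281). *WOX4*, a gene of the cambium, was the gene that rose (2.26, SE 0.68, adjusted p = 0.0129), a call that edgeR with TMM did not make. The call of *PNY* was lost without *ddm1* replicate 4 (-0.98) or wt replicate 5 (-0.99).

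Boundary genes separate organs from the meristem, and in the nuclei labelled *ddm1* their summed level lay between those of wt CS7 and CN7. *CUC2*, a NAC factor of boundaries, had 0, 0 and 7.11 normalized counts in *ddm1* CS7 and 11.8, 29.8 and 64.4 in wt CS7 (-4.37, SE 0.60, adjusted p = 7.47e-07). *LAS*, a GRAS factor of axillary meristems, had 1.97, 14.9 and 31.9 in *ddm1* CS7 and 115, 126 and 201 in wt CS7 (-3.42, SE 0.40, adjusted p = 4.55e-08). Neither overlapped, and the CN7 medians were 0.428 and 7.80. *CUC1*, *CUC3*, *LOF1* and *LSH4* fell too (-3.23, -3.12, -3.13 and -2.02), while *LSH3*, *BOP1* and *LOB* did not pass. The summed level of the list was 103, 125 and 160 in *ddm1* CS7, 364, 447 and 593 in wt CS7 and 44.9 to 99.8 in CN7. Against CN7, 6 boundary genes had enough reads for a test, of which 1 was higher and none lower (median 0.95). Of 24 meristem genes tested against CN7, 4 were higher and 2 lower (median 0.02). Of the 8 meristem genes that fell against wt CS7, *ATH1* alone was lower again (-2.01, adjusted p = 4.95e-07). *PNF*, lower than in wt CS7, was higher than in CN7 (1.93, adjusted p = 0.0384). In inflorescence stem cell nuclei 2 boundary genes fell (median -0.18), *LAS* among them (-1.55), and 1 of 26 meristem genes.

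A list made from other libraries gave the same direction. The list comes from heated nuclei and was read in unstressed ones. In 8 stem and 6 nonstem libraries of heated wt seedlings, 183 genes were higher in stem nuclei, and 177 of these were tested in CS7. There 75 fell and 3 rose, with a median of -0.97 and 155 negative values, beside a median of -0.02 and 868 falling genes among the 18413 others. The summed level was 17376, 19069 and 21119 in *ddm1* CS7, 27461, 32804 and 34854 in wt CS7 and 18806 to 20601 in CN7. The 58 tested genes that were higher in nonstem nuclei of heated wt included 7 that rose and 3 that fell, with a median of 0.29. Of the 943 genes that fell in *ddm1* CS7, 302 also fell when CN7 took the place of wt CS7, and of the 915 that rose 477 also rose, against 1791 of the 1844 TEs, a comparison chosen after the marker levels were seen. Of 118 named features and list members that were called, 52 lost the call against CN7. Others, such as *AGO5*, *CUC2* and *CLSY2*, were too low in both *ddm1* CS7 and CN7 for that test. They are not among the 52, although their calls were not kept either. Without some single library of CS7, 19 lost the call, most of which are counted in the lists and not described singly. The part that the reporter and marker levels have in the gene results was not tested further.

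Markers of other tissues did not all move together. Of 16 genes of leaf polarity and primordia 3 fell and 1 rose (median -0.49), of 11 epidermal genes 3 fell (-0.33), of 10 genes of the stomatal lineage 2 fell and 1 rose (-0.16), and of 14 genes of the vasculature 1 rose (0.30). Over all genes 4.92% rose and 5.07% fell, and single calls on these lists are near those shares. *AN3*, a coactivator of leaf cell proliferation, had 7.89, 38 and 63.8 normalized counts in *ddm1* CS7 and 146, 235 and 403 in wt CS7 (-3.09, SE 0.35), with a CN7 median of 49.3. *PDF1*, an epidermal gene of the outer layer, had 34.4, 208 and 271 in *ddm1* CS7 and 295, 484 and 606 in wt CS7 (-1.45, SE 0.34). Neither overlapped. *ATHB8*, a homeobox gene of the procambium, rose, with 126, 189.9 and 319 in *ddm1* CS7 and 39.7, 60.6 and 149 in wt CS7 (1.5, SE 0.26, adjusted p = 4.26e-05).

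Nuclear photosynthesis genes, which mark green leaf cells, had a higher summed level in the nuclei labelled *ddm1*, although few passed the test singly. Of 47 genes 6 rose and 1 fell (3 and 1 when scaled to the total of nuclear genes, 4 and 1 with edgeR), beside 4.92% and 5.07% of all genes, 39 had a positive value, and the median was 0.46. Their summed level was 252015, 285187 and 332764 in *ddm1* CS7, 123664, 153931 and 169193 in wt CS7 and 206863 to 258693 in CN7, without overlap of the stem cell groups. *LHCB1.4*, a light-harvesting protein of photosystem II, had 8475, 9600.0 and 11095 in *ddm1* CS7 and 2349.7, 3176 and 3776 in wt CS7 (1.61, SE 0.07, adjusted p = 1.08e-17). *LHCB1.3* and *LHCB1.5* rose by 1.5 and 1.31 on the log2 scale. *LHCB1.2* had a log2 fold change of 1.04, so close to the threshold that its call ended without wt replicate 1 (0.99) or wt replicate 8 (0.98). Against CN7 none of the list rose and 3 fell. Genes of the *LHCB1* and *RBCS* families are near-identical, and their single values may share reads.

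Replication-dependent histone genes, transcribed in S phase, had a lower summed level in the nuclei labelled *ddm1*. Of 26 tested genes 10 fell, beside 5.07% of all genes, none rose and all 26 values were negative, with a median of -0.94. Their summed level was 1568, 1962 and 3150 in *ddm1* CS7, 3007, 3943 and 4517 in wt CS7 and 2715 to 3849 in CN7. *HTR1*, which encodes histone H3, had 45.3, 70.1 and 114 normalized counts in *ddm1* CS7 and 127, 186 and 391 in wt CS7 (-1.61, SE 0.23, adjusted p = 1.64e-06). *HTR2*, which encodes the same histone, had 21.3, 98.2 and 135 in *ddm1* CS7 and 159.8, 205 and 229.9 in wt CS7 (-1.37, SE 0.28). Neither overlapped. *HTR9* and *HTR13* fell as well (-1.37 and -2.48), and so did *HTR3*, *H4c*, *H4f*, *H4g*, *H4h* and *HTB2*, while the abundant *HTB4* had 192, 226 and 379.7 in *ddm1* CS7 and 228, 289 and 338 in wt CS7 (-0.23, adjusted p = 0.284). The call of *H4g* was lost without *ddm1* replicate 3 (-0.97) or 5 (-0.94). Against CN7 8 of the 26 fell. No gene of the list fell in seedlings (median -0.11) and 1 in inflorescence stem cell nuclei (median -0.19). Coding sequences of these genes are near-identical within a histone type, so single values may share reads.

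Many plant histone promoters carry the octamer CGCGGATC (or its reverse, GATCCGCG), and it was searched in the 250 bases before each start. It was present before 7 of the 27 listed histone genes (25.9%), 4 of the 10 that fell (40%) and 3 of the 17 others (17.65%). Of these others 16 were not called and 1 was not tested. Over all genes it was present before 52 of 37897 (0.137%), and before 33 of the 18516 tested genes with a window (0.178%). A match is a description and not a binding site. The 150 bases before the start of the 4 genes that fell and hold it are shown because they share it, with the octamer in capitals (TAIR10.1, RefSeq). *HTR1* lies on the minus strand (chr5:26120582-26120731), as do *HTR2* (chr1:2972335-2972484), which has 2 copies, and *HTR9* (chr5:3270958-3271107), and *H4g* lies on the plus strand (chr5:24051324-24051473):
HTR1: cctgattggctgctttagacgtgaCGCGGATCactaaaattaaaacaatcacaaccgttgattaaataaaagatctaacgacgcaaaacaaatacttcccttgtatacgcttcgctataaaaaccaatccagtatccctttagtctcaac
HTR2: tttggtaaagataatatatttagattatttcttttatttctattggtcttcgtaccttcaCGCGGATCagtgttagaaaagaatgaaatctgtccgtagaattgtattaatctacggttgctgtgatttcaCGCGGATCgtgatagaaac
HTR9: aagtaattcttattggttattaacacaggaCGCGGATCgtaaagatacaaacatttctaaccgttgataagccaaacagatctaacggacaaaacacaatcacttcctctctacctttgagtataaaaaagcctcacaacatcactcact
H4g: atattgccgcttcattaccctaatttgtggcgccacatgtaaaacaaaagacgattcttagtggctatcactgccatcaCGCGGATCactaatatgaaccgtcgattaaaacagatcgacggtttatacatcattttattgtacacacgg

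Other genes of the cell cycle moved less. Of 23 DNA replication genes 4 fell (median -0.67), of 22 genes of mitosis and cytokinesis none was called (median -0.51), and of 17 genes of the DNA damage response 1 fell (median -0.15), beside 5.07% of all genes. *CDT1A*, a factor that licenses replication origins, had 0, 7.54 and 25.9 normalized counts in *ddm1* CS7 and 15.8, 29.9 and 55.2 in wt CS7 (-2.14, SE 0.57, adjusted p = 0.00503), with overlap and a CN7 median of 9.03. *HTA8*, which encodes a histone H2A.Z, was the gene that fell among 11 histone variants (-1.46, SE 0.31, median -0.74).

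Among regulators of flowering, 6 of 18 tested genes fell and 2 rose, beside 5.07% and 4.92% of all genes, with a median of -0.31. *FLC*, the repressor of flowering that vernalization silences, had 0, 0 and 20.3 normalized counts in *ddm1* CS7 and 9.79, 40.3 and 52.7 in wt CS7 (-3.98, SE 0.70, adjusted p = 4.65e-05), with CN7 at 5.10 to 23.1. Its relative *MAF1* had 47.3, 73.6 and 155 in *ddm1* CS7 and 263, 366 and 531 in wt CS7 (-2.22, SE 0.21, adjusted p = 4.8e-10) and fell in all 3 sample types at nearly the same fold (-2.28 in CT7, -2.21 in CS28). *FLC* fell in seedlings too (-3.97) and did not pass in inflorescence stem cell nuclei (-1.53, adjusted p = 0.052). *FD*, *AGL24* and *TFL1*, which act in the shoot apex, fell as well (-2.91, -3.52 and -2.98), at CN7 medians of 14.3, 4.03 and 0. *SPL4*, a promoter of flowering, rose, with 107, 138 and 219 in *ddm1* CS7 and 0, 21.5 and 96.2 in wt CS7 (3.08, SE 0.68).

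Type A response regulators, which are induced by cytokinin, rose in 3 cases. *ARR4* had 228, 266 and 346 normalized counts in *ddm1* CS7 and 70.6, 102 and 159.9 in wt CS7 (1.43, SE 0.17, adjusted p = 5.97e-08), without overlap, and *ARR5* and *ARR6* rose by 1.54 and 1.84 on the log2 scale. On the whole list of 15 tested cytokinin genes 3 rose and 1 fell, beside 4.92% and 5.07% of all genes, and the median was 0.08. Against CN7 2 of the 3 regulator calls were not made. Immunity genes stayed near the median of all genes (0.10), with 1 of 18 higher and 1 lower. *WRKY70*, a defence transcription factor, had 59.1, 102 and 142 in *ddm1* CS7 and 1.05, 12.7 and 32.7 in wt CS7 (2.98, SE 0.45, adjusted p = 4.77e-06), and *RPP4*, a resistance gene, had 221, 276 and 400.2 in *ddm1* CS7 and 750.2, 919.9 and 1133 in wt CS7 (-1.62, SE 0.14, adjusted p = 6.97e-11). Neither overlapped. Of 13 heat shock genes only *HSC70-1*, a constitutive chaperone, was called, with 6324, 7067 and 7812 in *ddm1* CS7 and 2562, 3230.2 and 3494 in wt CS7 (1.2, SE 0.07). Of 14 commonly used reference genes 1 rose, and their median was 0.35. Single calls on the immunity, heat shock and reference lists lie near the shares of all genes.

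**Figure D4:**
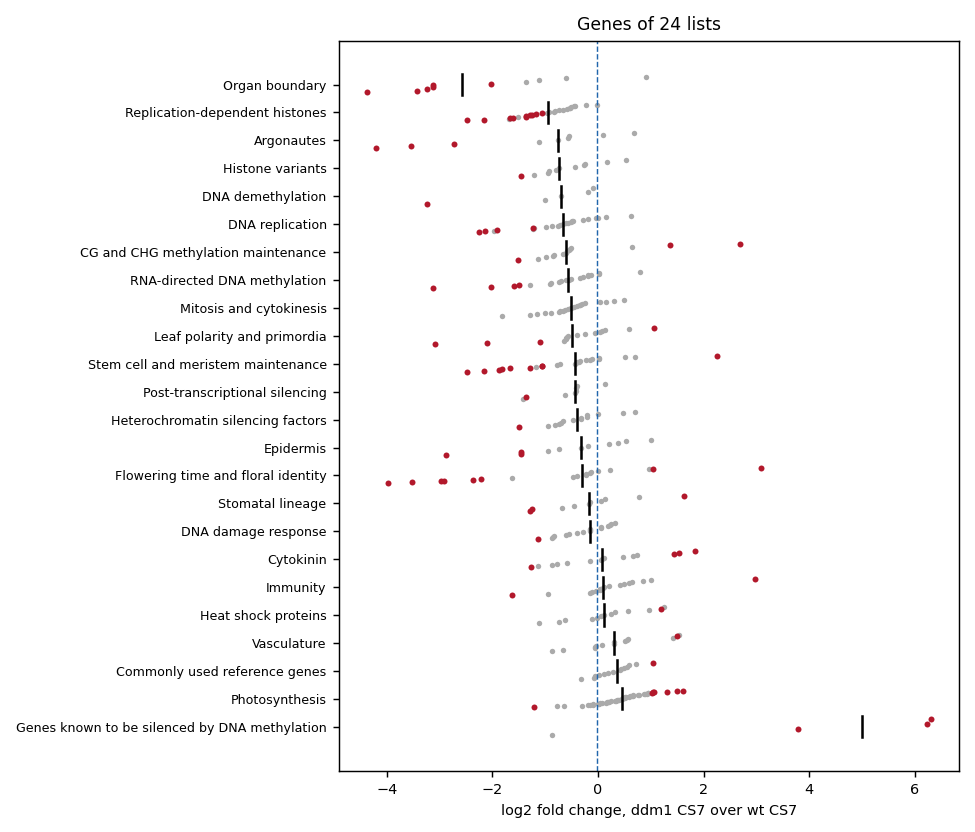
Log2 fold change of *ddm1* CS7 over wt CS7 for each tested gene of 24 lists (points; red points are called, grey points are not, black bars are medians, and the dashed line is the median of all genes, -0.02). Lists run from organ boundary genes (median -2.57) and replication-dependent histones (-0.94) at the top to photosynthesis genes (0.46) and genes silenced by DNA methylation (5.0) at the bottom.

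The same contrast of genotypes was measured in seedlings and in inflorescence stem cell nuclei, with no library shared. The methods of the study name a later version of the Smart-seq library preparation for 7-d stem cell nuclei than for seedlings and inflorescences, while the labels name the same version throughout, so that sample type and library preparation cannot be told apart in differences between them. In seedlings 168 of 16626 genes rose (1.01%), 62 fell (0.373%), 964 of 1176 TEs rose (82%) and 3 fell (0.255%). In inflorescence stem cell nuclei 513 of 19841 genes rose (2.59%), 1046 fell (5.27%), 1620 of 3182 TEs rose (50.9%) and 119 fell (3.74%). TEs were again filtered by a mean that their *ddm1* values alone could reach. Of the 1844 TEs that rose in CS7, 923 had enough reads for a test in seedlings and 1660 in CS28. Those that rose in CS7 and in seedlings numbered 886, which is 48.0% of the CS7 list and 91.9% of the seedling list, and 1462 rose in CS7 and in CS28 (79.3% and 90.25%). Of the 915 genes that rose, 685 were tested in seedlings and 825 in CS28, and 111 were shared with seedlings (12.1% of the CS7 list, 66.1% of the seedling list) and 212 with CS28 (23.2% and 41.3%), while 25 genes that rose in CS7 fell in CS28. Of genes that fell, 19 were shared with seedlings (2.01% and 30.6%) and 149 with CS28 (15.8% and 14.2%). Of the 71 TEs that fell, 12 were tested in seedlings and 1 fell there (1.41% and 33.3%), and 31 fell in CS28 (43.7% and 26.1%).

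**Figure D5:**
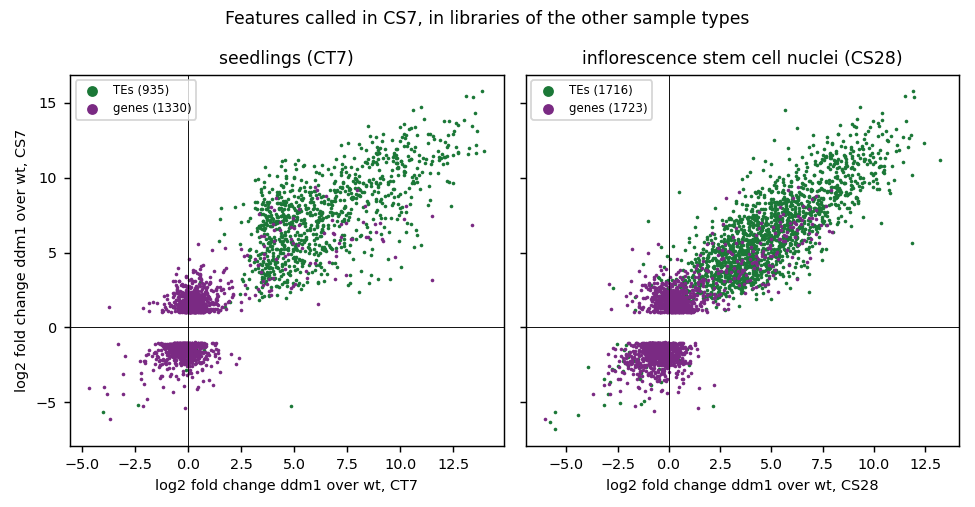
Log2 fold change of *ddm1* over wt in CS7 (vertical axis) and in seedlings (CT7, left) or inflorescence stem cell nuclei (CS28, right, horizontal axes) for TEs (green) and genes (purple) that were called in CS7 and tested in the other sample type. TEs stretch along the diagonal, whereas most genes lie near 0 on the horizontal axis, with medians of 0.34 (CT7) and 0.44 (CS28) for genes that rose and -0.21 and -0.45 for those that fell.

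Where the effects differed was tested as a difference between log2 fold changes. Between CS7 and CT7, 323 of 18452 genes (1.75%) had a larger and 327 (1.77%) a smaller log2 fold change in CS7, and 886 (38.7%) and 126 (5.5%) of 2290 TEs did so. These counts rested on the model, since edgeR on recovered reads called 43 and 142 genes and 6 and 43 TEs with a median over genes of -0.27, and of the 886 TEs 102 were at 0 in all CT7 libraries and 539 had a mean under 5 there. Between CS7 and CS28, 803 (4.15%) and 496 (2.56%) of 19339 genes and 589 (21.1%) and 56 (2.01%) of 2793 TEs differed. Here edgeR called 457 and 395 genes and 676 and 33 TEs. *AT1G59930*, annotated as a MADS-box protein, rose in mutant nuclei and by more in mutant seedlings (log2 fold changes 6.86 in CS7 and 13.38 in CT7). It had 88.7, 129.7 and 185 normalized counts in *ddm1* CS7 (0 to 1.63 in wt CS7) and 8777 to 20071 in *ddm1* CT7 (0 to 1.76 in wt CT7). With edgeR this difference was not called (adjusted p = 0.295). *AT3G60950*, at 419 to 591 in *ddm1* CS7, was at 0 to 1.61 in *ddm1* CT7 and at 25.5 to 44.1 in *ddm1* CS28. *XCP2*, a cysteine peptidase of xylem, had 18, 152 and 272 in *ddm1* CS7 and 0, 0.454 and 32.2 in wt CS7 (5.56, SE 0.71), but 9.08 to 13.7 in *ddm1* CS28 and 8.94 to 28.9 in wt CS28. *AT2G10440*, annotated as a subunit of the Mediator complex, was at 0 in all *ddm1* CS7 libraries and at 6.66 to 30 in wt CS7, while it was at 12.1 to 27.9 in *ddm1* CS28 and 1.74 to 5.19 in wt CS28. For stem cell genes, *AGO5*, *AGO9* and *STM* stood at 39.4 to 88.5, 339 to 496 and 137 to 225 in *ddm1* CS28 against 50.2 to 128, 532 to 637 and 137 to 266 in wt CS28. There *AGO5* and *STM* overlapped between the labels and *AGO9* did not, while at 7 d only *STM* overlapped.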

How the data were processed

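The deposited values are signal: per the labels and the methods, the authors counted reads over TAIR10 genes and over TEs without TE genes in a nextflow pipeline and divided the counts by DESeq2 size factors (bedtools 2.27 is also named). Aligner, counter and strand setting are not given in the sources used here. Columns of group means and SDs (52) were not used. Values of the 16 libraries came out as whole reads in 100% of cases within 0.1. Features with a mean of at least 5 were tested on log2(value + 1) with limma 3.58.1 (R 4.3.3, trend and robust), adjusted over 21333 features and called at 0.05 and an absolute log2 fold change over 1. Differences between sample types used library weights. edgeR 4.0.16 and DESeq2 1.42.0 on recovered reads were alternatives. Library measures had exact permutation tests. Named were the target, reporter, *CLV3* and *SDC*, the 12 largest and 12 smallest changes of called genes without overlap, 10 TEs by level and 5 by change, called members of 24 lists, and 6 genes per direction and difference. Genes added for contrast were chosen after their values were seen. Members and lists were chosen with earlier results of these data known. Names and upstream sequences came from RefSeq (TAIR10.1). Scripts were tested on simulated data.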

Additional observations from a re-analysis of the deposited data

Results flagged for a closer look

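The log2 fold change of *ddm1* over wt differed between 7-d stem cell nuclei (CS7) and seedlings (CT7) in an interaction test with limma for the 6 genes furthest apart in each direction. The difference, CS7 minus CT7, was 8.66 for *AT3G60950*, 7.37 for *AT5G41992*, 6.6 for *AT3G61030*, 6.36 for *AT3G29080*, 6.11 for *AT2G40955* and 5.95 for *AT4G07320*. It was -8.63 for *AT1G25112*, -8.3 for *AT1G59920*, -7.98 for *AT1G25025*, -7.86 for *AT1G25180*, -6.51 for *AT1G59930* and -6.22 for *AT1G36240*. *AT1G25112*, *AT1G25025* and *AT1G25180* had close values in *ddm1* CT7, at 101 to 589, 102 to 594 and 113 to 575 normalized counts. Whether they share reads was not tested. With edgeR the call of *AT1G25112* was also made (adjusted p = 0.0193), and that of the other 11 was not. The call of *AT5G41992* was also lost without wt CT7 replicate 2 (6.94, adjusted p = 0.0523).

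Against inflorescence stem cell nuclei, the difference CS7 minus CS28 was 7.01 for *OLEO4*, an oleosin gene, 6.55 for *AT2G01010*, an 18S rRNA gene, 6.08 for *XCP2*, 6.0 for *AT5G07570*, 5.85 for *AT5G50540* and 5.84 for *AT5G29560*. It was -6.74 for *AT5G09463*, -6.05 for *AT2G10440*, -5.45 for *AT4G25672*, -5.11 for *AT3G05936*, -4.72 for *AT1G13650* and -4.5 for *AT3G18320*. *OLEO4* had 14.5, 54.6 and 144 normalized counts in *ddm1* CS7 and 0, 0 and 8.88 in wt CS7, but 1.19 to 9.73 in *ddm1* CS28 and 12.6 to 34.4 in wt CS28. *AT2G01010* was not called in CS7 (0.66, adjusted p = 0.164, limma). In CS28 it had 40.9 to 460 under *ddm1* and 4257 to 10019 under wt (-5.88). The share of reads on 18S rRNA was 1.02% to 1.15% in *ddm1* CS28 and 1.02% to 1.35% in wt CS28. How reads were divided between 18S copies was not tested. The call of *AT5G09463* was lost without each single *ddm1* CS28 library (adjusted p = 0.0656 to 0.0711), with a pseudocount of 5 (0.054), without library weights (0.0872) and with edgeR (0.482). That of *AT4G25672* was lost under the last 3 settings too (0.0679, 0.11 and 0.18), and that of *AT5G50540* with edgeR (0.123).

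Single libraries stood apart from the other 7 of their group in 7 of 81 groups examined, where chance gives about 1 in 20. They were *CLV3* in wt CS7 replicate 6 (0.0 normalized counts), *AT3G29639* in wt CS7 replicate 8 (5.164), *AT1G13608* in *ddm1* CS7 replicate 8 (12.15), *AT1TE44450* in *ddm1* CS7 replicate 7 (62200.0), *AT1TE71830* in *ddm1* CS7 replicate 8 (18.22), *STM* in wt CS7 replicate 1 (11.26) and *AGO9* in wt CS7 replicate 7 (81.07).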

How the results depend on the processing

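Of the counts and group values under the alternatives 188 stayed close and 16 moved. For CS7, 34 TEs fell with a minimum mean of 20. Leaving out single libraries gave 876 to 973 genes and 1799 to 1865 TEs that rose and 864 to 939 genes and 63 to 79 TEs that fell. For CS7 minus CT7, a mean of at least 5 in each sample type gave 160 and 168 genes and 316 and 60 TEs, and edgeR 43 and 142 genes and 6 and 43 TEs. Leaving out single libraries gave 246 to 337 and 266 to 331 genes and 819 to 850 and 107 to 122 TEs. For CS7 minus CS28, fitting without library weights gave 486 and 246 genes and 31 lower TEs, edgeR 457 higher genes and 33 lower TEs, and a pseudocount of 5 gave 98 lower TEs. Leaving out single libraries gave 697 to 844 and 414 to 497 genes and 500 to 730 and 37 to 79 TEs, 37 without *ddm1* CS28 replicate 3. The cause was not tested. Same-numbered libraries did not deviate together (correlations from -0.0098 to 0.0356, own number best in 2 of 8), and the fit with a replicate block gave 900 and 933 genes and 1838 and 68 TEs.

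With CN7 in place of wt CS7, chosen after the marker levels were seen, 664 and 774 genes and 1867 and 75 TEs were called, and the sign turned for *LAS* (0.88), *STM* (0.80), *KNAT2* (0.98), *AHK4* (0.057), *PNF* (1.93), *LSH4* (1.02), *BRCA1* (0.74), *AGL24* (0.46), *FD* (0.027), *ANT* (0.034), *PNY* (0.72), *AGO9* (2.21), *MCM6* (0.046), *AT5G61120* (0.78) and *ERL1* (0.10). Over all refits of single features of CS7, 3004 kept call and sign, 189 lost the call, 10 gained it (*CLV3* and the reporter) and 15 turned. Depth limits genes of low count such as *CLV3*.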
